A study of Mus musculus with 13 samples.

Results

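In whole back skin at P4, 10 genes linked to Langerhans cells and dendritic epidermal T cells, the resident leukocytes of mouse epidermis, were read. Whole skin also holds dermis, and several of the genes, such as Ptprc and Csf1r, are shared with other leukocytes. The genes are Cd207, Cd74, H2-Aa, H2-Ab1, Cd3e, Cd3g, Il2rb, Jak3, Ptprc and Csf1r, and they were taken by name from the 49315 genes of the count files. All 10 held enough counts to be tested, among 20168 genes tested in all. Skin came from 3 WT mice and from 3 littermates labelled DKO, whose genotype is K14Cre+ Kctd1 fl/fl Kctd15 fl/fl, with 1 library per mouse. Both groups had the same age (day 4) and tissue, and neither received a treatment that the labels name. The K14 promoter directs Cre to keratinocytes and so, by design, not to leukocytes, and whether the WT littermates carried floxed alleles or Cre is not given in the sources used here. KCTD1 and KCTD15 are related proteins that bind AP-2 transcription factors and restrain their activity.

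Langerhans cells are antigen-presenting cells of the macrophage lineage that live among keratinocytes, depend on signals through the CSF1 receptor and carry langerin, the product of Cd207. They display peptides on MHC class II, a pair of chains encoded here by H2-Aa and H2-Ab1, which the invariant chain CD74 guides through the cell. Most T cells of mouse epidermis are gamma delta T cells of dendritic shape, which carry the CD3 chains on their surface and rely on IL-15, read through the receptor chains IL-2Rβ and the common gamma chain with the kinase JAK3. CD45, the product of Ptprc, marks nucleated leukocytes of all kinds. In the days after birth both epidermal populations are still filling the epidermis and maturing.

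The promoters of MHC class II genes share an X box and a Y box, which RFX factors and NF-Y bind and to which the coactivator CIITA is recruited. The stretches upstream of H2-Aa and of H2-Eb1, the gene of the beta chain of the second classical class II molecule, are shown. Both genes, like Cd74 and H2-Ab1, were lowest in the same DKO library, as described further on. Both come from RefSeq on GRCm38.p6 and are written 5′ to 3′ on the gene's strand, with the letters GCAAC of the X box core and CTGATTGG of the Y box in capitals. H2-Aa lies at chr17:34287828-34287947 on the minus strand and H2-Eb1 at chr17:34305747-34305866 on the plus strand.
H2-Aa: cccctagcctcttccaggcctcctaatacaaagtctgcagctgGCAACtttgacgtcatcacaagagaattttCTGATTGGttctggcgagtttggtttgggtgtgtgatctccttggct
H2-Eb1: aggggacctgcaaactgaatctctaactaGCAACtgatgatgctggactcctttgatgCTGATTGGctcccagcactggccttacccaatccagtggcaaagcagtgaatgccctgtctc
The letters CTGATTGG, read on both strands, occur in 4.1% of the 32851 promoter windows of 300 bases in the RefSeq table. GCAAC followed after 20 to 30 bases by CTGATTGG occurs in 22 of them, or 0.067%. The gap between the boxes is 25 bases in H2-Aa and 24 bases in H2-Eb1. Windows were found for 6 of the 10 genes, namely Cd207, H2-Aa, Cd3e, Cd3g, Jak3 and Ptprc. Among these the Y box letters were found in H2-Aa alone. The class II genes H2-DMa, with 2 windows, and H2-DMb1, with 1 window, were also read and held neither the Y box letters nor the pair. H2-DMa too was lowest in DKO 1, at 1.47 CPM (17 counts) beside 2.35 to 3.66 CPM in WT. H2-DMb1 was lowest in DKO 3, at 1.37 CPM, with 1.73 CPM in DKO 1 and 1.88 to 2.76 CPM in WT. Whether these letters bear on the low values was not tested.

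For Jak3, the gene with the largest difference between WT and DKO among the 10, the promoter was read for the AP-2 letters GCCNNNGGC, which are their own reverse complement, because AP-2 factors are the partners of KCTD1 and KCTD15. The 30 bases shown lie at chr8:71676316-71676345 on the plus strand, with the first of 2 matches in the window in capitals.
Jak3: aaagacaggaGCCCGAGGCggggagtgctc
This match ends 48 bases before the RefSeq start and lies within the bounds of Jak3 in the count files, which begin at 71676296. The second match lies after the RefSeq start and is not shown. A window with these letters is common, at 16.6% of all windows, and Jak3 was the 1 gene of the 6 with a window that held them. Outside the 10 genes, the window of H2-DMb1 held them too. H2-DMb1 overlapped between the genotypes, with a log2 fold change of -0.32 (edgeR adjusted p = 0.935). A match of letters is a description and says nothing of binding.

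The 6 libraries held between 11263863 and 17643043 counts on genes, and DKO 1 was the shallowest. Levels are given as CPM, counts scaled to library size, after scaling with TMM, which corrects library sizes for composition. The floor was set at 3 counts per library, which corresponded to between 0.167 and 0.259 CPM, and this floor covers counting error only. At the level of whole genes, both targeted genes were higher in every DKO library than in every WT library. The log2 fold change was 0.78 ± 0.218 for Kctd1 and 0.83 ± 0.140 for Kctd15 (SE, n = 3 per group). Counts of whole genes cannot show the loss of a floxed exon. Kctd1 measured 27.0 to 29.1 CPM in WT and 33.3 to 64.8 CPM in DKO, and Kctd15 measured 48.4 to 50.2 CPM in WT and 74.3 to 99.2 CPM in DKO. Among markers of other tissues, the summed level of 20 skeletal muscle genes was 6460 to 7420 CPM in WT and 10500 to 22200 CPM in DKO, with the highest value in DKO 1.

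Levels differed widely among the 10 genes. Per kilobase of exon, which allows genes to be compared, Cd74 was highest in WT at 20.6 ± 3.01 CPM per kb (SD, n = 3). H2-Aa followed at 10.6 ± 0.631, H2-Ab1 at 8.14 ± 1.49 and Csf1r at 6.33 ± 0.768 CPM per kb. The WT libraries of H2-Ab1 and Csf1r overlapped in this measure, so that their order is not fixed. Jak3 came next at 1.94 ± 0.285 and Ptprc at 0.953 ± 0.0724 CPM per kb. The 4 lowest genes were Cd207 at 0.680 ± 0.214, Il2rb at 0.670 ± 0.0593, Cd3e at 0.603 ± 0.112 and Cd3g at 0.488 ± 0.112 CPM per kb, and each of them overlapped with its neighbour. In DKO, Cd74 stayed first at 21.1 ± 13.3 CPM per kb (SD, n = 3), Csf1r measured 8.46 ± 1.23, H2-Aa 8.15 ± 2.84 and H2-Ab1 7.49 ± 5.17, and Jak3 reached 4.15 ± 0.165. The DKO libraries of these genes overlapped from Cd74 down to Jak3, each gene with the next, so that their order in DKO is not fixed. The genes that define Langerhans cells and T cells were thus the faintest of the set in whole skin, with 4 to 50 counts per library for Cd207, Cd3e, Cd3g and Il2rb.

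**Figure D1:**
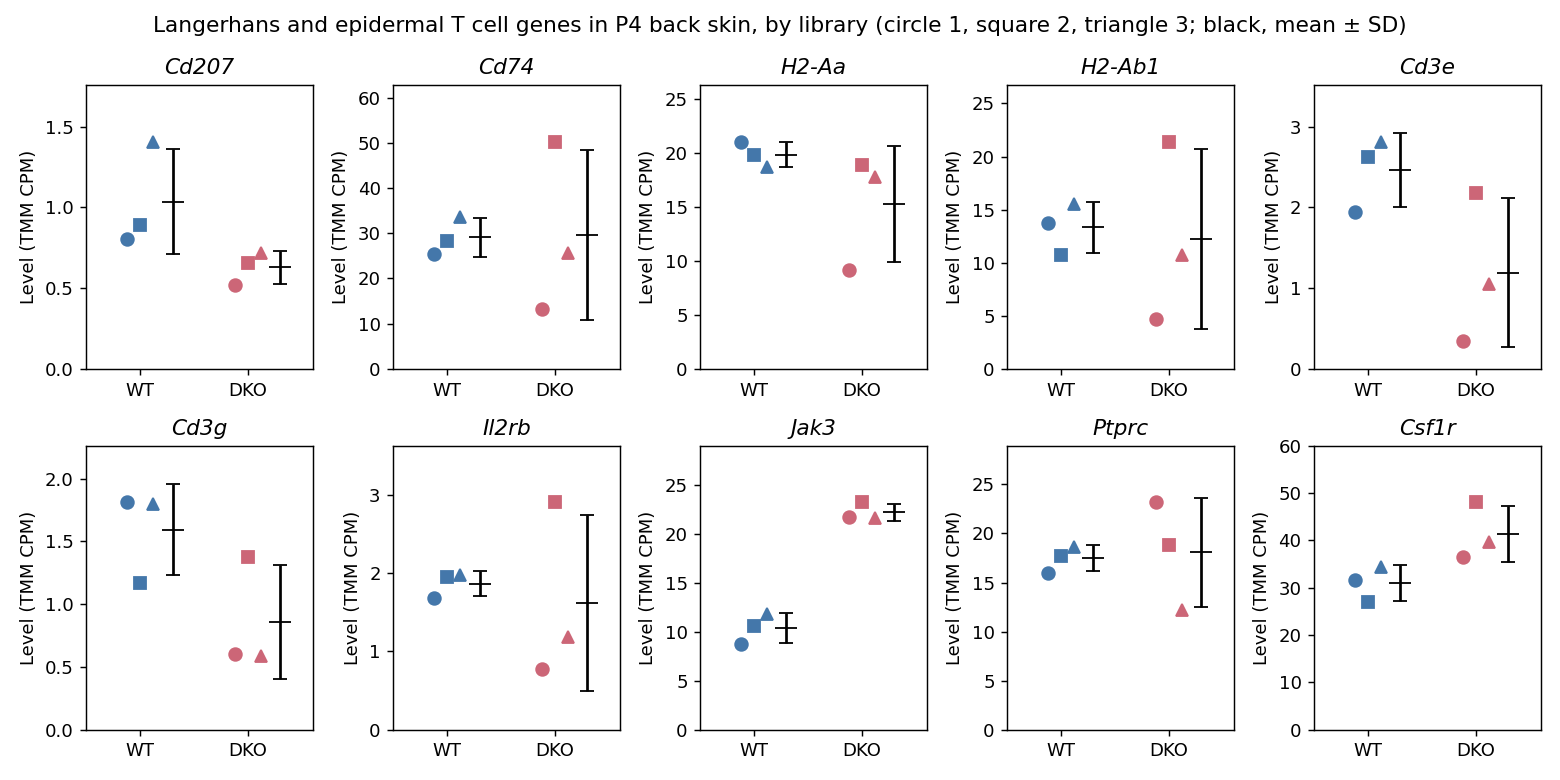
Level of each of the 10 genes in the 3 WT and the 3 DKO libraries, in CPM after TMM scaling, on axes that start at 0. Symbols stand for libraries 1 to 3 of each genotype, and the black mark is the mean with its SD. Jak3 lies at 8.78 to 11.8 CPM in WT and 21.7 to 23.2 CPM in DKO, while most other genes overlap between genotypes.

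Jak3, the kinase that transmits signals of the common gamma chain, was higher in every DKO library than in every WT library. It measured 8.78, 10.5 and 11.8 CPM in WT 1 to 3 and 21.7, 23.2 and 21.7 CPM in DKO 1 to 3. Behind these levels were 131 to 210 counts in WT and 251 to 331 counts in DKO, so that the shallowest library held more Jak3 counts than the deepest. The ratio of the group means was 2.14, and the log2 fold change was 1.09 ± 0.165 (SE, n = 3 per group) with a 95% interval from 0.72 to 1.46. Genes were called at a Benjamini-Hochberg adjusted p under 0.05 with an absolute log2 fold change over 1, and in edgeR's quasi-likelihood test Jak3 just missed this threshold, at 0.0679 after adjustment over all genes tested. DESeq2, which the study's methods name, called it, at 1.08 ± 0.203 on the log2 scale (adjusted p = 6.86e-05). In edgeR, Jak3 was also called with no filter on low counts (adjusted p = 0.00094), with the number shared by mice in the labels as a block (adjusted p = 0.0396) and without DKO 1 (adjusted p = 0.0361).

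The difference in Jak3 was present under both numbers that the labels share between WT and DKO mice, whose meaning they do not state. Under 40972 it measured 11.8 CPM in WT 3 and 21.7 CPM in DKO 1. Under 47347 it measured 8.78 and 10.5 CPM in the WT libraries and 23.2 and 21.7 CPM in the DKO libraries. With library sizes computed without the skeletal muscle and red blood cell genes, the log2 fold change was 1.08 (edgeR adjusted p = 0.0581). Jak3 shares 404 bp, or 7.55% of its exon length, with Insl3 on the same strand, and Insl3 held 2 to 9 counts per library.

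None of the 10 genes was called by edgeR, where 14 of 20168 genes tested were called (0.0694%), and 1, Jak3, was called by DESeq2, where the share of genes called was 0.827%. At an unadjusted p under 0.05 in edgeR, 2 of the 10 genes were higher in DKO, Jak3 and Csf1r, and 0 were lower. Over all genes tested these shares were 4.96% higher and 2.54% lower. The DKO libraries lay wholly above the WT libraries for 2 genes, against 7.24% of all genes, and wholly below them for 1, Cd207, against 5.96%. In all, 4 of the 10 genes had a log2 fold change above 0 and 6 below, with a median of -0.15 beside 0.02 for all genes tested. This median rested on single libraries, since it was -0.64 without DKO 2 and -0.02 without DKO 1.

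**Figure D2:**
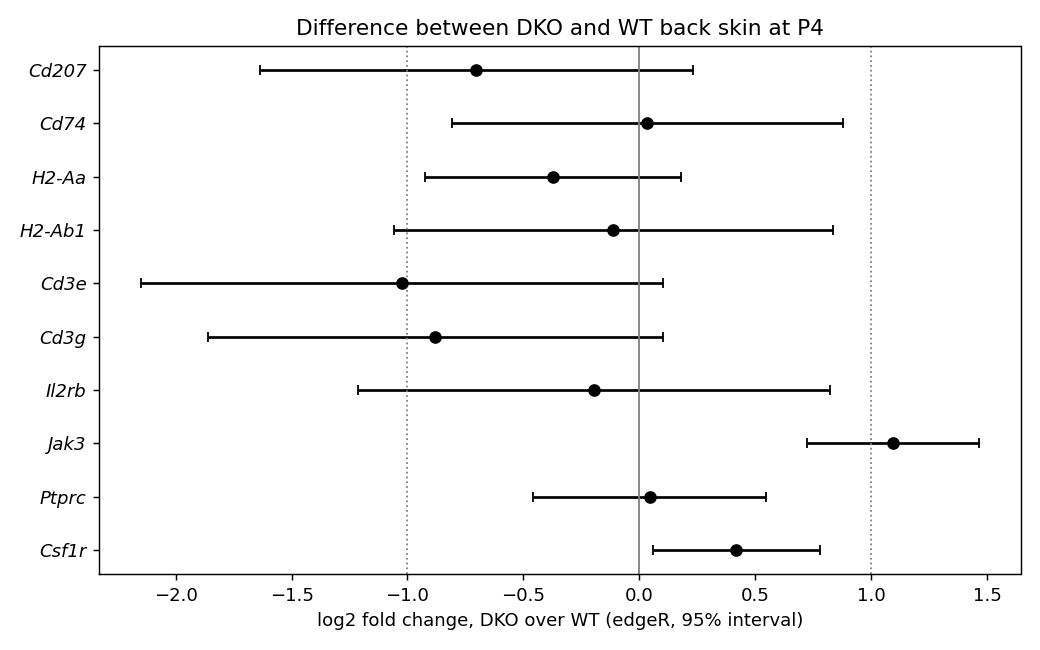
Log2 fold change of DKO over WT for each of the 10 genes from edgeR, with 95% intervals, 3 libraries per group. The solid line marks 0 and the dotted lines mark the threshold of 1 in each direction. The intervals of Jak3 and Csf1r lie above 0, and those of the other 8 genes include it.

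The receptor chains that JAK3 serves did not pass the test. Il2rb, the signaling chain shared by the IL-2 and IL-15 receptors, measured 1.68, 1.95 and 1.97 CPM in WT and 0.778, 2.90 and 1.18 CPM in DKO. The DKO libraries lay on both sides of the WT libraries, with the lowest value in DKO 1 and the highest in DKO 2. The log2 fold change was -0.20 ± 0.455 with a 95% interval from -1.21 to 0.82 (edgeR adjusted p = 0.967). It was 0.10 without DKO 1 and 0.0025 without DKO 3, so that its direction changed with the library left out. Il2rg, the common gamma chain itself, measured 7.97, 7.31 and 10.1 CPM in WT and 10.2, 12.4 and 9.56 CPM in DKO, and its groups overlapped (log2 fold change 0.34, edgeR adjusted p = 0.816).

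Relative to its partner Il2rg and to the leukocyte gene Ptprc within each library, Jak3 was higher in DKO. The ratio of Jak3 counts to Il2rg counts was 1.10, 1.44 and 1.17 in WT and 2.13, 1.87 and 2.27 in DKO. The ratio of Jak3 to Ptprc was 0.548, 0.594 and 0.634 in WT and 0.937, 1.23 and 1.78 in DKO. Neither ratio overlapped between the genotypes. These ratios are described without a test, since they rest on the same Jak3 counts as the comparison above.

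**Figure D3:**
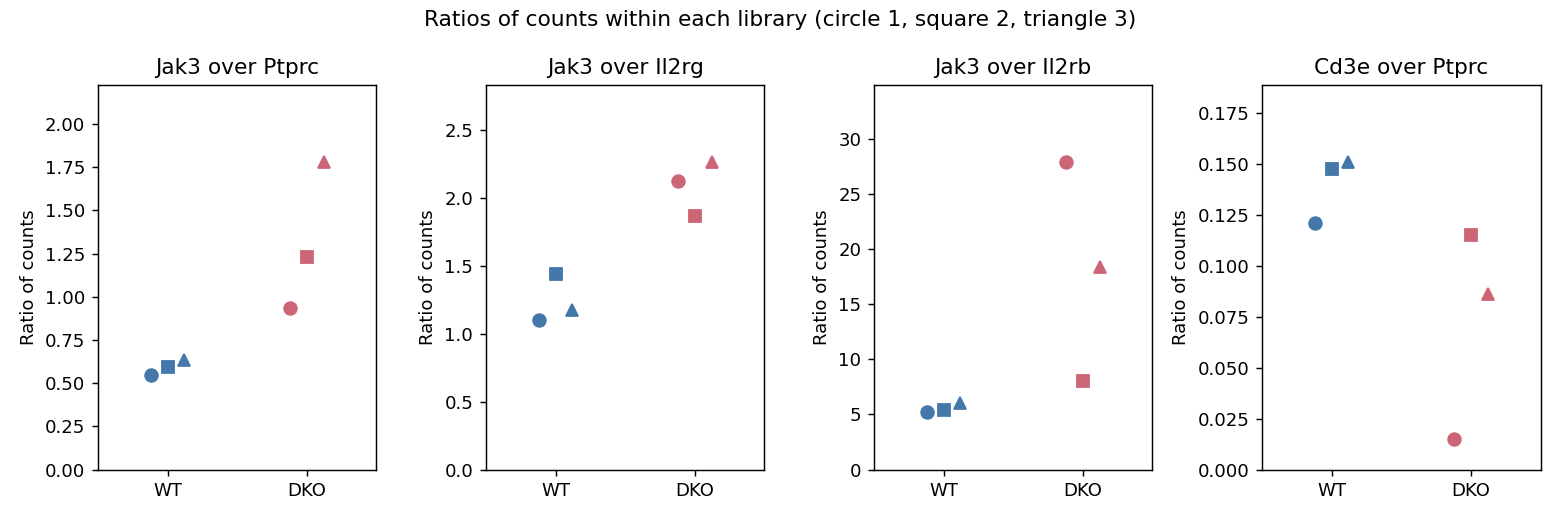
Ratios of counts within each library, from left to right Jak3 over Ptprc, Jak3 over Il2rg, Jak3 over Il2rb and Cd3e over Ptprc, for libraries 1 to 3 of WT and DKO on axes that start at 0. The first 3 ratios are higher in each DKO library than in each WT library, and Cd3e over Ptprc is lower, at 0.121 to 0.151 in WT and 0.0149 to 0.115 in DKO.

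Of the 18 genes of the common gamma chain receptors and their signaling, 15 were tested, and their median log2 fold change was 0.09. Of these, 3 were higher and 1 lower at an unadjusted p under 0.05, beside 4.96% and 2.54% of all genes tested. Besides Jak3, the genes with the smallest p were Il15, the cytokine that maintains epidermal T cells, and Stat3, a transcription factor downstream of many cytokine receptors. Il15 measured 8.78, 7.87 and 9.39 CPM in WT and 5.19, 5.37 and 5.17 CPM in DKO. All DKO libraries thus lay below all WT libraries, with a log2 fold change of -0.73 ± 0.191 that did not pass the adjusted threshold (edgeR adjusted p = 0.302). Stat3 had a log2 fold change of 0.36 ± 0.119 (edgeR adjusted p = 0.458). Jak1, the partner kinase on the other receptor chain, had a log2 fold change of 0.02.

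Cd3e and Cd3g encode chains of the CD3 complex, which carries the signal of the T cell receptor into the cell, and both had lower group means in DKO. Cd3e measured 1.94, 2.62 and 2.81 CPM in WT and 0.346, 2.18 and 1.05 CPM in DKO. Only 4 counts stood behind the value of DKO 1, near the floor of 3 counts, and DKO 2 lay within the WT range. The log2 fold change was -1.02 ± 0.502 with a 95% interval from -2.15 to 0.10 (edgeR adjusted p = 0.733). In such bulk samples, fewer cells of a type and less RNA per cell cannot be told apart.

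Cd3g measured 1.81, 1.17 and 1.80 CPM in WT and 0.605, 1.38 and 0.589 CPM in DKO. DKO 1 and DKO 3 lay below all WT libraries, and DKO 2 lay above WT 2. The log2 fold change was -0.88 ± 0.439 with a 95% interval from -1.86 to 0.10 (edgeR adjusted p = 0.741). The sum of both genes was 3.75, 3.80 and 4.61 CPM in WT and 0.951, 3.55 and 1.64 CPM in DKO, lower in each DKO library. DKO 2 lay close to WT 1 in this sum, and each gene alone overlapped between the genotypes. Of all genes tested, 5.96% lay wholly below WT. The size of the difference rested on DKO 1 and DKO 2, since the log2 fold change of Cd3e was -0.64 without DKO 1 and -1.75 without DKO 2 (edgeR adjusted p = 0.21 in the latter), and that of Cd3g was -1.40 without DKO 2 (adjusted p = 0.269). Under the label number 47347 the Cd3e levels of WT and DKO overlapped, and under 40972 they were 2.81 CPM in WT 3 and 0.346 CPM in DKO 1. Cd3e shares 135 bp of exon with Gm48719 on the opposite strand, which held 0 to 4 counts per library.

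Among the constant region genes of the T cell receptor, both gamma delta and alpha beta genes were covered at low counts. In WT the level per length was 0.567 ± 0.0651 CPM per kb for Trdc, 0.363 ± 0.106 CPM per kb for Trac and 2.75 ± 0.911 CPM per kb for Trbc2 (SD, n = 3), a constant region of the beta chain. Trdc, the constant region of the delta chain, measured 2.48, 2.06 and 2.02 CPM in WT and 2.51, 1.31 and 1.83 CPM in DKO, while Trac, the constant region of the alpha chain, stayed between 0.173 and 0.402 CPM and was not tested. Of the 34 genes of the T cell receptor complex and its signaling, 23 were tested, 11 with a log2 fold change above 0 and 12 below, and the median was -0.0039. Tcrg-C1, a constant region of the gamma chain, had the smallest p of the list and measured 2.48, 0.949 and 2.14 CPM in WT and 0.778, 0.653 and 0.982 CPM in DKO. Its log2 fold change was -1.18 ± 0.446 (edgeR adjusted p = 0.538), and its libraries overlapped. Thy1, a surface protein of T cells that fibroblasts also carry, had 0.38 ± 0.177 (adjusted p = 0.678), and Bcl11b, a transcription factor of T cells and of keratinocytes, had 0.25 ± 0.119 (adjusted p = 0.695). Tcrg-V5 and Trdv4, variable segments looked up after the values above were seen, held 7 to 12 and 0 to 14 counts in WT and 1 to 5 and 1 to 3 counts in DKO, too few for a test. Of the remaining CD3 chains, Cd3d held 0 to 4 counts per library. Cd247, the zeta chain, held 34 to 63 counts and had a log2 fold change of 0.21 ± 0.267 (edgeR adjusted p = 0.942), opposite in sign to Cd3e and Cd3g.

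Genes that support epidermal gamma delta T cells had more values below than above WT. Of 21 genes, 17 were tested, with 12 below and 5 above a log2 fold change of 0 and a median of -0.15. At an unadjusted p under 0.05, 5 were lower and 2 higher, beside 2.54% and 4.96% of all genes tested. The DKO libraries lay wholly below WT for 5 and wholly above for 2, beside 5.96% and 7.24% of all genes tested. Besides Il15, the genes with the smallest p were Skint9 and Skint4, members of the Skint family of keratinocyte proteins, whose founder Skint1 selects dendritic epidermal T cells in the thymus. Skint9 measured 37.7, 35.5 and 37.8 CPM in WT and 17.5, 21.8 and 29.6 CPM in DKO. Its log2 fold change was -0.68 ± 0.19 (edgeR adjusted p = 0.342), and that of Skint4 was -0.73 ± 0.218 (adjusted p = 0.379). Skint1 overlapped between the genotypes, at 37.3 to 44.4 CPM in WT and 28.7 to 51.9 CPM in DKO. Skint genes are similar in sequence, and how multimapping reads were treated is not stated, so that their separate values are uncertain.

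Cd207, which encodes langerin, the defining lectin of Langerhans cells, was the 1 gene of the 10 for which all DKO libraries lay below all WT libraries. It measured 0.804, 0.893 and 1.41 CPM in WT and 0.519, 0.653 and 0.720 CPM in DKO. These levels rested on 12, 16 and 25 counts in WT and on 6, 9 and 11 counts in DKO. The log2 fold change was -0.70 ± 0.418 with a 95% interval from -1.64 to 0.23 (edgeR adjusted p = 0.819), so a difference was not detectable at this depth. DESeq2 gave Cd207 no adjusted p because of its low counts.

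Of 24 Langerhans cell genes, 21 were tested, 14 with a log2 fold change above 0 and 7 below, with a median of 0.13. Genes such as Tgfbr2 and Ahr, with WT means of 145 and 123 CPM, lay far above Cd207 at 1.03 CPM. The median therefore does not stand for Langerhans cells alone. Ly75, which encodes the endocytic receptor DEC-205 of Langerhans and dendritic cells and also of some epithelia, had the smallest p. It measured 5.16, 3.96 and 3.60 CPM in WT and 1.04, 2.03 and 2.23 CPM in DKO. All DKO libraries lay below WT, with a log2 fold change of -1.24 ± 0.328 that did not pass the adjusted threshold (edgeR adjusted p = 0.307). Tgfb1, a cytokine that Langerhans cells need to develop and stay in the epidermis, had a log2 fold change of 0.54 ± 0.200 (adjusted p = 0.531), with all DKO libraries above WT. Il34, the CSF1 receptor ligand that keratinocytes make, overlapped between the genotypes with a log2 fold change of -0.09.

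The genes of antigen presentation on MHC class II varied more among the DKO mice than between the genotypes. H2-Ab1, the class II beta chain, measured 13.7, 10.7 and 15.5 CPM in WT and 4.67, 21.4 and 10.7 CPM in DKO. Cd74, the invariant chain, measured 25.3, 28.2 and 33.7 CPM in WT and 13.3, 50.3 and 25.6 CPM in DKO. For both genes DKO 1 was the lowest and DKO 2 the highest of the 6 libraries. H2-Aa, the class II alpha chain, measured 21.0, 19.8 and 18.7 CPM in WT and 9.16, 18.9 and 17.7 CPM in DKO. It too was lowest in DKO 1, but DKO 2 lay within the WT range.

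The log2 fold changes of these genes were 0.03 ± 0.377 for Cd74, -0.37 ± 0.246 for H2-Aa and -0.11 ± 0.422 for H2-Ab1, with edgeR adjusted p of 0.993, 0.862 and 0.978. The 95% intervals reached from -0.81 to 0.88 for Cd74, from -0.92 to 0.18 for H2-Aa and from -1.06 to 0.83 for H2-Ab1, so that changes of up to these sizes lie within the replicate error. Leaving out DKO 1 gave 0.36 for Cd74 and 0.25 for H2-Ab1, and leaving out DKO 2 gave -0.57 and -0.76, so that the direction rested on single libraries. The summed level of Cd74, H2-Aa and H2-Ab1 was 60.1, 58.8 and 67.9 CPM in WT and 27.1, 90.6 and 54.1 CPM in DKO. The SD of this sum was 4.93 CPM in WT and 31.8 CPM in DKO.

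The wider class II list showed the same balance. Of 20 genes, 16 were tested, 8 with a log2 fold change above 0 and 8 below, with a median of -0.0013, and 0 were called or passed an unadjusted p of 0.05 in edgeR. H2-Eb1 measured 5.83, 7.87 and 5.62 CPM in WT and 3.20, 8.05 and 5.37 CPM in DKO, again with the lowest value in DKO 1 and the highest in DKO 2. Ciita, the coactivator recruited to the X and Y boxes shown above, measured 3.55, 3.85 and 4.95 CPM in WT and 3.89, 5.08 and 5.04 CPM in DKO, with DKO 1 above WT 1 and WT 2. Cd86, a costimulatory ligand, had the smallest p, with a log2 fold change of 0.47 ± 0.295 (edgeR adjusted p = 0.835), and Lgmn, a lysosomal protease, had 0.19 ± 0.168 (adjusted p = 0.918).

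MHC class I, which nearly all nucleated cells carry, was represented by 16 genes, all tested. Of these, 14 had a log2 fold change below 0 and 2 above, beside 9499 of 20168 below 0 among all genes tested. The median was -0.07, and 0 passed an unadjusted p of 0.05 in edgeR. This median rested on single libraries, at -0.0082 without DKO 3 and -0.31 without DKO 2. The genes with the smallest p were H2-Q7 at -0.64 ± 0.302 (edgeR adjusted p = 0.701), H2-Q6 at -0.94 ± 0.56 (adjusted p = 0.819) and B2m, the class I light chain, at -0.23 ± 0.143 (adjusted p = 0.839). H2-Q genes are similar in sequence, and how multimapping reads were divided among them is not stated, so their separate values are uncertain too.

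**Figure D4:**
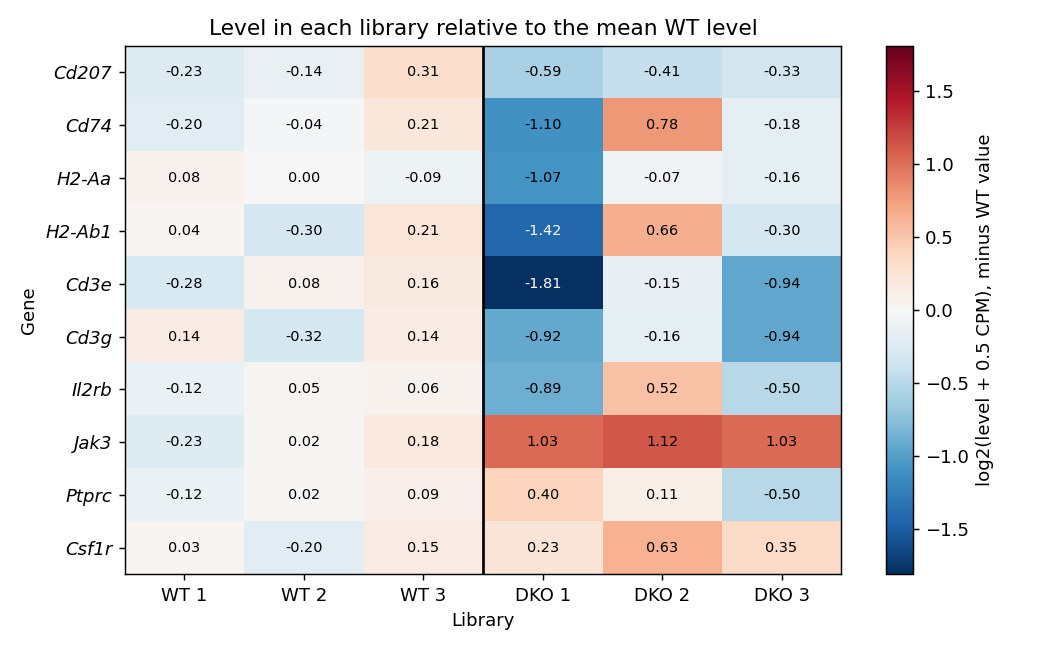
Level of the 10 genes in each library on the scale log2(CPM + 0.5), relative to the mean WT value of the gene, with red above and blue below WT. Jak3 is between 1.03 and 1.12 in the 3 DKO libraries. Cd207, Cd74, H2-Aa, H2-Ab1, Cd3e and Il2rb are lowest in DKO 1, where Cd3e reaches -1.81.

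Csf1r, the receptor for CSF1 and IL-34 on Langerhans cells and macrophages, was higher in every DKO library. It measured 31.6, 26.9 and 34.3 CPM in WT and 36.4, 48.0 and 39.6 CPM in DKO. The log2 fold change was 0.42 ± 0.161 with a 95% interval from 0.06 to 0.78, and it did not pass the adjusted threshold (edgeR adjusted p = 0.549). Csf1r shares 871 bp, or 17.8% of its exon length, with Hmgxb3 on the opposite strand, which held 618 to 1097 counts per library. Whether the counting used the strand is not given in the sources used here, so that reads of Hmgxb3 in this stretch cannot be told from those of Csf1r.

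Genes of macrophages mostly had log2 fold changes above 0. Of 28 genes of macrophages and the CSF1 receptor, all were tested, 25 had a log2 fold change above 0 and 3 below, and the median was 0.32, beside 10669 of 20168 above 0 and a median of 0.02 for all genes tested. At an unadjusted p under 0.05, 8 were higher in DKO and 0 lower, beside 4.96% and 2.54% of all genes tested, and 0 were called by edgeR or DESeq2. Aif1, a cytoplasmic protein of macrophages, had the smallest p and measured 0.335, 0.446 and 0.337 CPM in WT and 0.864, 1.02 and 0.918 CPM in DKO. Its log2 fold change was 1.30 ± 0.416 (edgeR adjusted p = 0.427) at low counts. C1qa, a chain of complement C1q made by tissue macrophages, had 0.59 ± 0.218 (adjusted p = 0.524), and Msr1, a scavenger receptor, had 0.94 ± 0.353 (adjusted p = 0.538). Adgre1, which encodes the macrophage antigen F4/80, overlapped between the genotypes with a log2 fold change of 0.05.

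Ptprc, the gene of CD45, had nearly the same mean in both genotypes. It measured 16.0, 17.7 and 18.6 CPM in WT and 23.2, 18.9 and 12.2 CPM in DKO. The DKO libraries lay on both sides of WT, here with DKO 1 the highest and DKO 3 the lowest. The log2 fold change was 0.04 ± 0.224 with a 95% interval from -0.46 to 0.55 (edgeR adjusted p = 0.981), and it was -0.19 without DKO 1 and 0.27 without DKO 3. DKO 1 thus held the most Ptprc and the least Cd3e, and the ratio of Cd3e to Ptprc counts was 0.121, 0.148 and 0.151 in WT and 0.0149, 0.115 and 0.0860 in DKO.

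Of 22 genes shared by leukocytes of all kinds, all were tested, 17 with a log2 fold change above 0 and 5 below, and the median was 0.25. The genes with the smallest p were Laptm5 at 0.54 ± 0.198 (edgeR adjusted p = 0.522), Rac2 at 0.58 ± 0.234 (adjusted p = 0.583) and Arhgap30 at 0.36 ± 0.178 (adjusted p = 0.741). None of the 8 lists held a gene called by edgeR, and DESeq2 called 1 gene among them, Jak3.

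**Figure D5:**
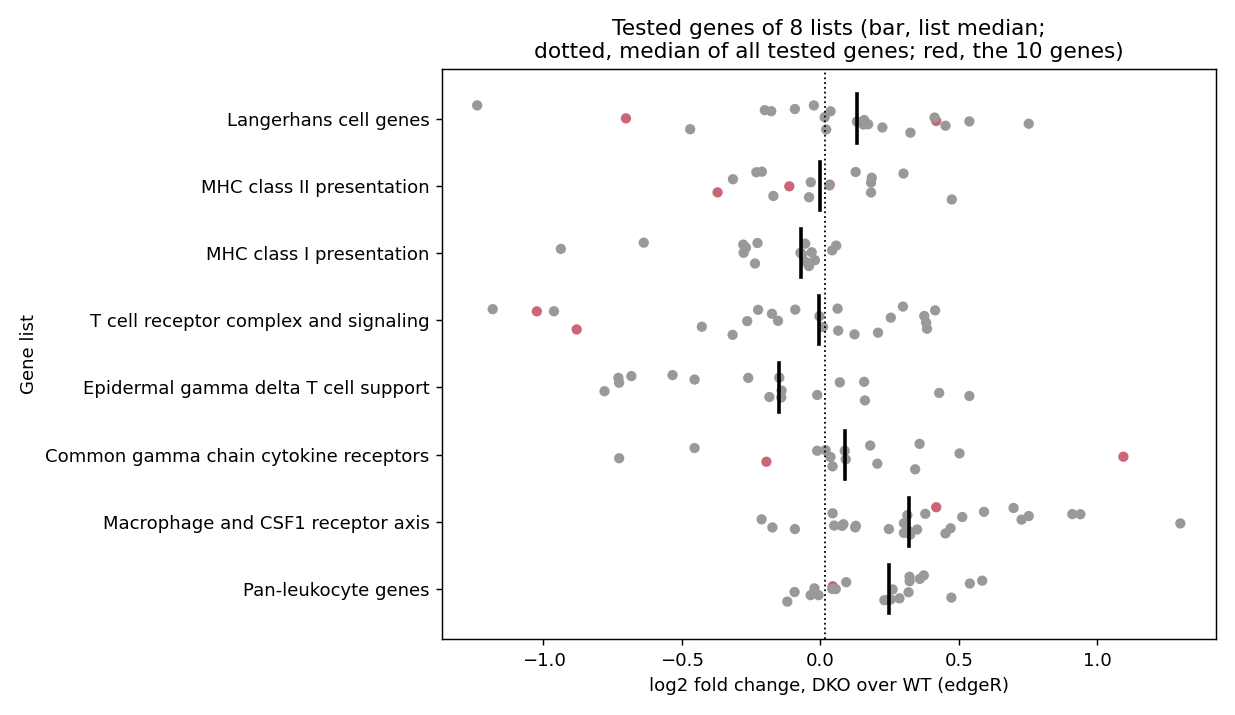
Log2 fold change of DKO over WT for the tested genes of the 8 lists, from edgeR, 1 point per gene with vertical scatter for legibility. Red points are genes of the 10, black bars are list medians, and the dotted line is the median of all genes tested at 0.02. The medians range from -0.15 for the support of epidermal gamma delta T cells to 0.32 for macrophage genes, and Jak3 lies at 1.09.

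Marker lists of other cells in whole skin held 0 genes called by edgeR. DESeq2 called 11 of 20 skeletal muscle genes, 2 of 12 adipocyte genes and 1 of 8 red blood cell genes, beside 0.827% of all genes. The part of these cells in the values above was not tested. The summed level of 11 mast cell genes was 231 to 251 CPM in WT and 264 to 339 CPM in DKO. The most abundant of them was Kit, which is not particular to mast cells. Of the 9 tested, 8 had a log2 fold change above 0, and Fcer1a was at 0 in all libraries. All 12 dermal fibroblast genes had a log2 fold change above 0, and their sum was 15100 to 18700 CPM in WT and 17300 to 25600 CPM in DKO. For 11 neutrophil genes the sum was 3.09 to 3.46 CPM in WT and 4.19 to 5.62 CPM in DKO, of which Csf3r, the most abundant, gave 0.603 to 0.837 CPM in WT and 1.16 to 1.44 CPM in DKO, with Ly6g at 0 throughout. For 8 B cell genes it was 12.3 to 16.1 CPM in WT and 5.19 to 12.1 CPM in DKO, of which Ighm, the only one tested, gave 10.7 to 15.3 CPM in WT and 3.28 to 10.2 CPM in DKO. For 8 genes of NK and innate lymphoid cells it was 561 to 611 CPM in WT and 505 to 612 CPM in DKO, mostly from Gata3 and Rora, which keratinocytes also express, with Klra7 at 0.

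Keratinocyte genes, 15 in number, summed to 13600 to 14000 CPM in WT and 14500 to 19000 CPM in DKO, highest in DKO 2, where Cd74 and H2-Ab1 were highest too. The sums were 317 to 347 and 312 to 441 CPM for 11 endothelial genes, 1720 to 2510 and 1590 to 3430 CPM for 12 adipocyte genes, 662 to 1000 and 596 to 1010 CPM for 7 melanocyte genes, and 137 to 165 and 67 to 178 CPM for 8 red blood cell genes, in WT and DKO. All 20 skeletal muscle genes had a log2 fold change above 0, with a median of 1.06. For 16 of them the DKO libraries lay wholly above WT, beside 7.24% of all genes tested. DKO 1, which had the highest muscle sum, was also the library with the lowest Cd207, Cd3e, Il2rb, Cd74, H2-Aa and H2-Ab1. Cd3g, Jak3, Ptprc and Csf1r were not lowest there. Ptprc was highest in DKO 1, at 23.2 CPM, as were the sums of the macrophage list, at 693 CPM, and of the mast cell list, at 339 CPM. A link to muscle was not tested.

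The genes whose levels ran closest to Cd207, H2-Ab1 and Cd3e across the 6 libraries were looked up among 18601 tested genes with a mean of at least 1 CPM. Likeness was measured as the root mean square difference of log2 CPM, each gene centred on its own mean. For H2-Ab1 the closest genes were S100a3, which encodes a calcium-binding protein of the hair cuticle, Ly6g6d and Gm11568, at 0.108, 0.134 and 0.137, beside an SD of 0.733 for H2-Ab1 itself. S100a3 measured 295, 276 and 319 CPM in WT and 108, 456 and 225 CPM in DKO, and so was lowest in DKO 1 and highest in DKO 2 as H2-Ab1 was. For Cd3e they were Gnmt, Aldh3a1 and Hsd3b6, genes of metabolic enzymes, at 0.201, 0.210 and 0.217 beside an SD of 1.00. For Cd207 they were Gm16128, 2310002F09Rik and Mlkl, the effector of necroptosis, at 0.0645, 0.0741 and 0.0882 beside an SD of 0.422. With 6 points per gene, this order is a description of these libraries.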

How the data were processed

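RNA of whole back skin from 3 WT and 3 DKO mice at P4 was depleted of rRNA and sequenced as 150 bp paired-end reads by the authors. Per the labels' processing notes they used Trimmomatic 0.36, STAR 2.5.2b on GRCm38 and featureCounts (Subread 1.5.2). The deposited values are counts per gene, whole and not normalized. The 7 epidermis libraries were at 0 for all genes in the files and were not used. The genes and lists were chosen with earlier results of these data known, and they include 8 pathway lists and 11 lists of other cell types. All 10 genes are named, with the 3 smallest p per list and the 3 closest genes for Cd207, H2-Ab1 and Cd3e. Symbols matched 99.3% of identifiers. In R 4.3.3, edgeR 4.0.16 (filterByExpr, TMM, quasi-likelihood test, Benjamini-Hochberg over 20168 genes) compared DKO with WT, with a biological coefficient of variation of 20%. Each SE is the fold change divided by the square root of F. DESeq2 1.42.0 was an alternative, beside other scalings and filters, the label number shared by mice as a block and each library left out. Both tools were tested on simulated data in which 200 well-counted genes were changed. That simulation did not cover genes with counts as low as those of Cd207, Cd3e, Cd3g and Il2rb. With 3 against 3, an exact permutation test cannot go below p = 0.1.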

Additional observations from a re-analysis of the deposited data

How the results depend on the processing

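Jak3 was higher in DKO under every alternative run, and its call depended on the setting. In edgeR its log2 fold change was 0.98 to 1.19 with each library left out, with adjusted p from 0.0361 to 0.436. It was called in edgeR with no filter on low counts (1.07), with the label number as replicate block (1.10) and without DKO 1 (1.10), and in DESeq2 (1.08), DESeq2 with the replicate block (1.09) and DESeq2 without each library (1.06 to 1.18), both added after seeing the data, except without WT 1 (0.98). The number of the 10 genes called was 1 in each of these fits and 0 to 1 with a library left out. Over all genes, edgeR called 22 with total counts, 210 with no filter, 35 with the replicate block and 2 to 36 with a library left out, and DESeq2 called 152 and, with the block, 150. Without WT 1, WT 2 or WT 3 DESeq2 called 68, 65 or 71, and without DKO 1, DKO 2 or DKO 3 it called 66, 207 or 171.

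Cd74 turned to -0.035 with total counts, -0.075 with the block and -0.57 to 0.36 with a library left out. With a library left out, Ptprc ranged from -0.19 to 0.27, H2-Ab1 from -0.76 to 0.25, Il2rb from -0.90 to 0.10, and the medians from -0.64 to -0.0085 for the 10 genes, 0.058 to 0.15 for Langerhans cell genes and -0.13 to 0.060 for T cell receptor genes. The cause was not tested. The remaining 228 of 279 values kept their direction and their side of the threshold or moved by less than the spread. Deviations of libraries with the same number correlated at -0.02 to 0.23 over genes and those with different numbers at -0.15 to -0.10, and the labels do not say what the number marks. Cd207, Cd3e and Cd3g rested on 4 to 50 counts per library.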
